A study of Mus musculus with 88 samples.

Results

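Female mice of the D1-Cre genotype, in which Cre marks cells that express the dopamine D1 receptor, were compared 6 days after surgery between a guide RNA to Fosb and a non-targeted guide. The comparison holds 14 of the 87 libraries of the series that have a column in the count table: 6 with the Fosb guide and 8 with the control guide, chosen by their labelled group and all from sequencing batch 1. Both groups were backcrossed to C57BL/6 and received a pair of herpes simplex virus vectors in the nucleus accumbens, with expression dependent on Cre. One vector brought a Cas9 without nuclease activity joined to CREB(S133D), a form of CREB that is always active, so the control mice carried this activator too. The groups differed in the guide on the other vector, g11 for the Fosb locus or gNT with no target. Ages are not given in the labels.

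Total RNA came from the dissected nucleus accumbens as a whole, depleted of ribosomal RNA and sequenced as stranded libraries. Cells that took up no vector are therefore included, and fewer cells of a type cannot be told apart from less RNA per cell. Each library has a number in its title, but the labels do not say that each is a separate animal. The p-values therefore measure the spread between libraries. Levels are CPM, read counts scaled to a common library size with TMM, edgeR's correction for library composition. Fold changes are log2 of the Fosb guide over the control guide with their standard error (SE). They come from edgeR's quasi-likelihood fit over 25420 genes of all 87 libraries. In this fit the spread of a gene is taken over all 12 groups of the series, not over the 14 libraries alone. A gene passed where its Benjamini-Hochberg adjusted p was under 0.05.

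Fosb encodes FosB and, by alternative splicing, the truncated and unusually stable ΔFosB, which pair with Jun proteins to form AP-1 transcription factors. ΔFosB builds up in the medium spiny neurons of the accumbens, mainly the D1 type, after repeated exposure to drugs of abuse and other rewards. CREB, the activator tethered here, binds cAMP response elements in promoters of genes that neurons switch on with activity, Fosb among them.

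Library totals were 25695503 to 59328186 counts with the Fosb guide and 15844472 to 41546449 with the control guide. In 2 libraries genes of the ribosomal RNA loci took most counts: 57.6% in Fosb guide library 16754 and 75.8% in control library 17457, against at most 4.53% in the others of both groups. This left 3830017 counts for all other genes in 17457. Fosb guide library 17376 had 37.0 CPM of the Y-linked Ddx3y beside 35.2 CPM of Xist, which only the inactive X of females transcribes. The 37 male libraries of the series had a median of 71.5 CPM of Ddx3y and 0.215 CPM of Xist. Xist was at 48.0 to 122 CPM in the other libraries with the Fosb guide and at 25.4 to 71.2 CPM in the controls. Library 17376 thus went against its female label in Y-linked genes. Its Xist was the lowest with the Fosb guide but within the range of the controls. Whether this library mixes RNA of both sexes was not tested. Control 17457 had 4.77 CPM of Ddx3y from 22 reads, and the other 12 libraries at most 0.716 CPM. Control 16583 stood apart in genes on chromosome 12, described last. Results are also given without 16583 and 17376. Medium spiny neuron genes were present in every library: the 18 shared genes of these cells summed to 4114 to 6543 CPM with the Fosb guide and 3607 to 7975 CPM with the control guide.

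Fosb transcripts themselves did not pass the test across genes, with the median higher with the Fosb guide. With the Fosb guide Fosb was at 10.5, 6.41, 12.2, 9.13, 7.73 and 12.2 CPM in libraries 16564, 16565, 16754, 17376, 17435 and 17436. With the control guide it was at 6.94, 4.63, 6.82, 6.36, 9.64, 7.37, 8.58 and 7.98 CPM in 16583, 16585, 16596, 16597, 17455, 17457, 17719 and 19755. Of the libraries with the Fosb guide, 16565 alone lay below the control median of 7.16 CPM, 3 lay above every control, and the groups overlapped. The log2 fold change was 0.41 ± 0.23 (SE), with an edgeR p of 0.0834 unadjusted and 1 adjusted. An exact permutation test of the mean log2 CPM with all 14 libraries gave p = 0.0516, two-sided. Leaving out 16583 and 17376, the fold change was 0.42 (edgeR p = 0.109 unadjusted), and the same exact permutation test with the other 12 libraries gave p = 0.0972. The gene (ENSMUSG00000003545.3) lies on chromosome 7, 19302696 to 19310051, minus strand of mm10. Of 18 annotated genes within 100 kb, Fosb included, 15 were tested, 8 above and 7 below a fold change of 0, with a median of 0.01, and none passed.

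No AP-1 gene passed. Of the 8 members of the family, Fosb included, 6 had a fold change above 0, with a median of 0.13 against 0.00 over all genes tested, of which 50.8% lay above 0. Without 16583 and 17376 the median was 0.11. Fosl2, a Fos-related partner of Jun proteins, had a lowest, median and highest of 30.7, 43.1 and 55.3 CPM with the Fosb guide and 23.1, 31.8 and 47.3 CPM with the control guide. The log2 fold change was 0.40 ± 0.22 (SE, edgeR adjusted p of 1). Fos was at 0.22 and Junb at 0.12. CREB itself and its coactivators were close to 0 as well, with 6 of 8 above it, a median of 0.09 and none that passed. Crebbp, the histone acetyltransferase that CREB recruits, was at 0.21 ± 0.14 (SE). With DESeq2 size factors 7 of these 8 lay above 0.

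Transcription factors that neurons induce with activity lay mostly on the higher side. Of 15 tested, 12 had a fold change above 0, with a median of 0.29, and 4 had an unadjusted edgeR p under 0.05, all higher. Over all genes 4.48% were under that threshold and 2.89% were under it and higher. None of the 15 passed after adjustment. Leaving out 16583 and 17376, the median was 0.27, with 14 above 0 and 3 under the unadjusted threshold. The mean log2 CPM of the list was 3.80 ± 0.148 with the Fosb guide (SD, n = 6) and 3.37 ± 0.240 with the control guide (SD, n = 8). The lowest summed level with the Fosb guide, 274 CPM, lay under the highest with the control guide, 289 CPM.

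Egr1 and Nr4a3 had the smallest p of the list. Egr1, a zinc finger factor of the early response to synaptic activity, was at 68.7, 88.8, 120, 67.5, 48.1 and 83.1 CPM with the Fosb guide in the library order above. The controls had 40.2, 41.7, 41.3, 54.3, 56.2, 46.2, 44.1 and 65.9 CPM. Each of the 6 exceeded the control median, but 17435, at 48.1 CPM, lay below 3 controls. The fold change was 0.70 ± 0.23 (SE, edgeR p = 0.00322 unadjusted and 0.987 adjusted), and 0.71 without 16583 and 17376. Nr4a3, an orphan nuclear receptor induced by cAMP, was at 15.5, 18.5, 21.9, 13.9, 19.5 and 23.2 CPM with the Fosb guide. The controls had 9.84, 7.95, 9, 12.6, 14.3, 9.11, 8.55 and 8.75 CPM. Only Fosb guide library 17376 and control 17455 kept the groups from being separate. The fold change was 0.90 ± 0.31 (SE, edgeR p = 0.00536 unadjusted and 1 adjusted), and 0.97 without 16583 and 17376.

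The relatives of these genes gave smaller or less even differences. Nr4a2 had the largest fold change of the list, 2.08 ± 0.81 (SE, edgeR adjusted p of 1), with 2.14 to 31.6 CPM with the Fosb guide and 0.650 to 7.85 CPM with the control guide. Its highest libraries were 16565 and 16754. Per1, a clock gene with cAMP response elements, was at 0.32 ± 0.16 (SE), Nr4a1 at 0.44 ± 0.28 and Egr3 at 0.35 ± 0.23. Each of these 3 overlapped between the groups and had an adjusted edgeR p of 1. Among 21 effector genes of the same response 17 lay above 0, with a median of 0.06, and none passed. Without control 16585 or 17457 12 of the 21 did, with medians of 0.040 and 0.017, and 11 under a covariate of choroid plexus markers. Inhba, which encodes an activin subunit, was at 6.88, 9.29 and 14.1 CPM (lowest, median, highest) with the Fosb guide and 4.04, 6.50 and 11.3 CPM with the control guide. It had a fold change of 0.55 ± 0.24 (SE, edgeR adjusted p of 1). Bdnf, a secreted neurotrophin that the striatum receives largely from the cortex, was at 1.44 ± 0.72 (SE) and Arc, a synaptic plasticity gene, at 0.39 ± 0.25. Rgs2, a regulator of G protein signalling, was at −0.25 ± 0.15 (SE).

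**Figure D1:**
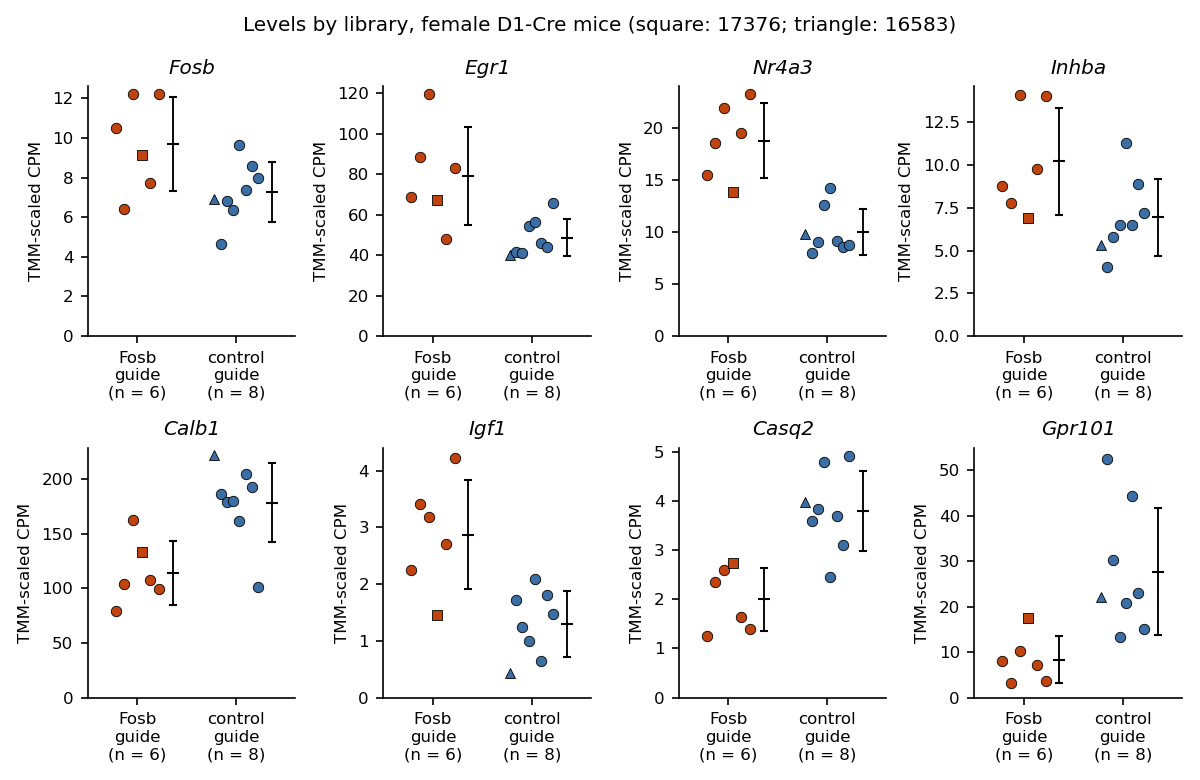
Levels of 8 genes in each library, in TMM-scaled CPM on axes that start at 0, with the Fosb guide (red, n = 6) left of the control guide (blue, n = 8); bars are mean and SD, the square is 17376 and the triangle 16583. Nr4a3 is at 13.9 to 23.2 CPM with the Fosb guide and at 7.95 to 14.3 CPM with the control guide, whereas Fosb overlaps over most of its range.

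The promoters of Fosb and of the genes of the list with an unadjusted p under 0.05 are shown for the core of the response element that CREB binds. Egr1 is not shown. Each is the 250 bases before the gene start of RefSeq (GRCm38.p6), 5′ to 3′ on the gene's strand. Capitals mark this core, TGACG, or CGTCA where it lies on the other strand.
Fosb promoter, chr7:19310046-19310295, minus strand: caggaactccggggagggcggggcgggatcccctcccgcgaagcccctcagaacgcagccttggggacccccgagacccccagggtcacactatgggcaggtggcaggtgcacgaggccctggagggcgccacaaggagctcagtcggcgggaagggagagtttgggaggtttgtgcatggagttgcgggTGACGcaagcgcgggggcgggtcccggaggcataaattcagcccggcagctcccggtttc
Nr4a3 promoter, chr4:48045055-48045304, plus strand: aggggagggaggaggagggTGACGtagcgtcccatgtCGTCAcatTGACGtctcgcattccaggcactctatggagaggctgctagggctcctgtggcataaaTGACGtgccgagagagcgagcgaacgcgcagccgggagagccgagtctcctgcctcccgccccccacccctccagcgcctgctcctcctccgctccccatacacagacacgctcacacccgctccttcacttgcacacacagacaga
Nr4a2 promoter, chr2:57124004-57124253, minus strand: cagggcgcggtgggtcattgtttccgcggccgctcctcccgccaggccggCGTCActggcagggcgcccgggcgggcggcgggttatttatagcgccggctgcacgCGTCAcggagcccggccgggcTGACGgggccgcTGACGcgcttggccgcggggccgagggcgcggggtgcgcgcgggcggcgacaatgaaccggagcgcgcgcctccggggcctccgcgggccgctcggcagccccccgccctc
Per1 promoter, chr11:69098699-69098948, plus strand: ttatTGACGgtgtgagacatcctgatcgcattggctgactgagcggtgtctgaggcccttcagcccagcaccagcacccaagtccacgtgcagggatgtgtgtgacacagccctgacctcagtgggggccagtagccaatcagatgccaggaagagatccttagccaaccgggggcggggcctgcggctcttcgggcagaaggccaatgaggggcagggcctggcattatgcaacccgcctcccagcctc
Fosb and Per1 hold 1 core each, which begin 60 and 246 bases before the start, and Nr4a3 and Nr4a2 hold 4 each. Of 27025 promoter windows of this length, 17.9% hold the core on either strand. The full palindrome TGACGTCA, which contains the core, is in 1.62% of the windows and the AP-1 motif TGANTCA in 6.87%, and neither is in the 4 shown. The RefSeq start of Per1 used here lies 3732 bases from the start of the gene in GENCODE. These are matches of letters, and binding was not measured.

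Markers of cortical excitatory neurons lay on the higher side with the Fosb guide, in libraries where part of the activity genes were high as well. In 16565 and 16754 both these markers and Nr4a2 were highest. The 12 tested had a median fold change of 1.84, with 10 above 0, 5 with an unadjusted edgeR p under 0.05 and none that passed. All 12 were detected in both groups, and their summed level ran from 92.8 to 755 CPM with the Fosb guide and from 45.9 to 282 CPM with the control guide. Tbr1, a factor of deep-layer projection neurons, was at 5.69, 63.6, 32.0, 4.38, 13.6 and 23 CPM with the Fosb guide. The controls had 0.674, 2.02, 0.727, 11.0, 18.8, 1.08, 0.692 and 3.12 CPM. Fosb guide library 16565 was highest, and controls 16597 and 17455 lay above the other controls and above Fosb guide libraries 16564 and 17376, and 17455 above 17435 as well. Tbr1 was at 2.27 ± 1.06 (SE, edgeR adjusted p of 1), Fezf2, a factor of deep-layer neurons too, at 2.11 ± 0.68 and Neurod6 at 2.38 ± 1.11. Without 16583 and 17376 the list's median was 1.94, and with each library left out in turn it ran from 1.33 to 2.34.

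The activity genes were refitted with the mean log2 CPM of these 12 markers as a covariate. Nr4a2 was then at −0.08 and Bdnf at −0.10, while Egr1 was at 0.46, Nr4a3 at 0.55, Inhba at 0.44 and Fosb at 0.50. The median of the 15 activity-induced factors was 0.36 under the covariate, and 1 of them had an unadjusted edgeR p under 0.05, against 4 without it. Among glutamate receptor genes 9 of 22 lay above 0 and none passed. The 2 with an unadjusted edgeR p under 0.05 were Grik3, a kainate receptor subunit, at 0.62 ± 0.30 (SE), and Grm2, a presynaptic metabotropic receptor, at 1.06 ± 0.52. Under the covariate Grik3 was at 0.03 and Grm2 at −0.22, and Grin2b, an NMDA receptor subunit, was at 0.01 in place of 0.35. Grik3 had 35.8 to 85.6 CPM with the Fosb guide, with 16565, 17436 and 16754 highest, and 22.4 to 53.0 CPM with the control guide.

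**Figure D2:**
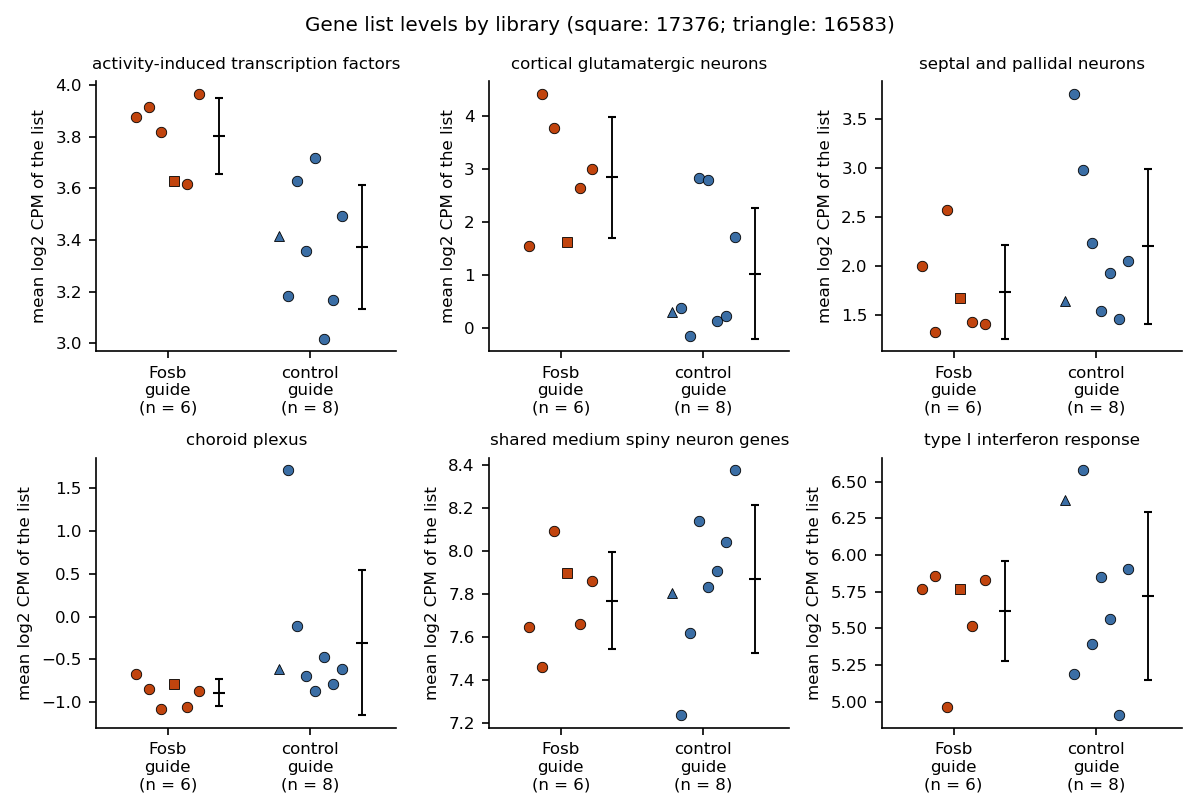
Mean log2 CPM of 6 gene lists in each library, with the Fosb guide (red, n = 6) left of the control guide (blue, n = 8); bars are mean and SD, the square is 17376 and the triangle 16583, and each panel has its own range. The cortical list is highest in Fosb guide libraries 16565 and 16754, and control 16585 stands above the rest in the choroid plexus and septal lists.

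Septal and pallidal markers, and those of cholinergic neurons, which the accumbens also holds as interneurons, lay on the lower side. By mean log2 CPM, controls 16585 and 16596 were highest in septal and pallidal genes. Of 5 markers of the diencephalon, 3 lay above 0, with a median of 0.13. None of the 7 septal and pallidal genes was above 0, with a median of −0.55, and none of the 5 genes of cholinergic neurons, with a median of −0.40. Leaving out 16583 and 17376, the medians were −0.65 and −0.57. None of the 12 passed. Leaving out 16585 alone gave a septal and pallidal median of −0.30. Gbx1, a homeobox factor of the ventral forebrain, had 0.495 to 1.63 CPM with the Fosb guide and 0.977 to 7.74 CPM with the control guide, highest in the same controls. The log2 fold change was −1.23 ± 0.48 (SE), and −0.68 without 16585. Ngfr, the p75 receptor of basal forebrain cholinergic neurons, was at −1.19 ± 0.51 (SE), and −0.61 without 16585. Lhx8, which specifies forebrain cholinergic neurons, was at −0.87 ± 0.40 and Chat, their acetylcholine synthesis enzyme, at −0.67 ± 0.34 (SE). Summed levels of the septal and pallidal list were 32.0 to 96.3 CPM with the Fosb guide and 31.6 to 165 CPM with the control guide. By this sum Fosb guide library 16754, at 96.3 CPM, lay above control 16596, at 91.2 CPM.

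The choroid plexus list was highest in control 16585 too. Its 10 genes summed to 12.2 to 26.1 CPM with the Fosb guide and 20.1 to 71.5 CPM with the control guide, with 2 of 10 above 0 and a median fold change of −0.63. Ttr, the thyroid hormone carrier that this epithelium makes in bulk, was at 20.9 CPM in control 16585, 0.848 CPM in 16597, at most 0.138 CPM in the other 6 controls, where 17457 and 19755 had no read, and 0.0256 to 0.0684 CPM with the Fosb guide. The difference was −6.01 ± 1.59 (SE, edgeR adjusted p of 0.589), and −1.90 without 16585. Prlr, the prolactin receptor, was at 13 CPM in 16585 and at most 2.95 CPM in the other controls, against 0.313 to 1.10 CPM with the Fosb guide. The Fosb guide over the control guide gave −2.04 ± 0.76 (SE), and −0.92 without 16585. Sostdc1, a secreted antagonist of BMP, was at −2.31 ± 0.77 and Clic6, an intracellular channel protein, at −0.63 ± 0.30 (SE). Without 16585 the median of the list was −0.16. With the mean log2 CPM of these 10 genes as a covariate, the 15 activity-induced factors had a median of 0.22. Of these factors 11 lay above 0 and 2 had an unadjusted edgeR p under 0.05, against 12 and 4 without the covariate. The cause of this change was not tested.

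Genes of the medium spiny neurons themselves were close to 0. Of the 18 shared genes 2 lay above 0, with a median of −0.14, of the 10 D1 markers 1, with a median of −0.11, and of the 7 D2 markers 1, with a median of −0.05. The D2 marker above 0 was Grik3. None of the 35 passed. The medians without 16583 and 17376 were −0.14, −0.18 and −0.14. Control 19755 set much of the direction: without it 4 of 18, 5 of 10 and 4 of 7 lay above 0, with medians of −0.051, −0.013 and 0.015. Leaving out Fosb guide library 16565 or control 17719 put 4 of the 7 D2 markers above 0 as well. Other settings moved the medians of these lists lower. Without control 16585 they were −0.22, −0.17 and −0.15, and under the choroid plexus marker covariate −0.31, −0.24 and −0.24. Drd1, the receptor that names the targeted cells, had a lowest, median and highest of 220, 260 and 323 CPM with the Fosb guide and 177, 298 and 382 CPM with the control guide, a fold change of −0.10 ± 0.23 (SE). Ebf1, a factor of D1 neuron development, was at −0.42 ± 0.25 (SE), and every library with the Fosb guide was below the control median. Pdyn, the dynorphin precursor of D1 neurons, was at −0.13 ± 0.27 and Penk, the enkephalin precursor of D2 neurons, at −0.31 ± 0.26 (SE). Pde1b, a phosphodiesterase abundant in both types, was at −0.26 ± 0.23 and Adora2a, the adenosine receptor of D2 neurons, at −0.27 ± 0.27 (SE).

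Of 10 genes that have been reported as targets of ΔFosB, 4 lay above 0, with a median of −0.04, and none passed. Calb1, which encodes the calcium buffer calbindin, was the one with an unadjusted edgeR p under 0.05. It was at 79.2, 104, 163, 134, 108 and 99.7 CPM with the Fosb guide. The controls had 222, 186, 179, 180, 161, 204, 193 and 101 CPM. Every library with the Fosb guide was below the control median of 183 CPM, but the groups overlapped: 16754, at 163 CPM, lay above controls 17455 and 19755, and 19755 lay among the others. The fold change was −0.64 ± 0.25 (SE, edgeR p = 0.0116 unadjusted and 1 adjusted), and −0.64 without 16583 and 17376. Under the cortical marker covariate it was −0.33. Camk2a, a synaptic kinase and a reported ΔFosB target in the accumbens, was at 0.30 ± 0.28 (SE), with 203 to 550 CPM with the Fosb guide and 151 to 444 CPM with the control guide.

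No gene other than Gm9887 passed across the 25420 tested, so that 1 gene, or 0.00393%, was called. At an unadjusted edgeR p under 0.05 there were 735 higher and 404 lower (1.59%). Among genes of at least 1 CPM on average, none had groups that did not overlap with the Fosb guide higher, and 2 of 16990 (0.0118%) had the Fosb guide lower. The 2 are Sfta3-ps, at −0.98 ± 0.32, and Dpy19l3, a C-mannosyltransferase, at −0.33 ± 0.19 (SE), named after their values were seen. Dpy19l3 had 42.2 to 56.8 CPM with the Fosb guide and 60.1 to 75.5 CPM with the control guide, and its adjusted edgeR p was 1. Under the cortical marker covariate Sfta3-ps was at −0.57 and Dpy19l3 at −0.07. With no minimum level the groups did not overlap in 2 genes that were higher (0.00787%) and 3 that were lower (0.0118%).

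The established genes of smallest p on the higher side were of several kinds, and none passed. Pomc, the precursor of β-endorphin and melanocortins made in the hypothalamus, was at 11.6 CPM in Fosb guide library 16564 and 0.651 to 1.69 CPM in the other 5, against 0.629 to 2.17 CPM with the control guide. It was at 1.30 ± 0.33 (SE, edgeR adjusted p of 0.564), and −0.13 without 16564. Igf1, a growth factor, was at 1.46, 2.95 and 4.22 CPM (lowest, median, highest) with the Fosb guide and 0.438, 1.36 and 2.09 CPM with the control guide. The log2 fold change was 1.08 ± 0.35 (SE, edgeR adjusted p of 0.987), 1.09 without 16583 and 17376 and 0.49 under the cortical marker covariate. Others named by the rule were Fezf2, given above, and the Y-linked Ddx3y, Kdm5d and Uty, at 4.65, 4.72 and 4.27, which were at −0.14, −0.04 and −0.27 without 16583 and 17376. In their place that reduced fit named Myl4, a myosin light chain, at 0.93, Prss35 at 1.59 and Klhl40 at 1.17, each highest in Fosb guide library 16565.

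On the lower side the genes of smallest p were Casq2, Gpr101, Plrg1, Fibin and Cntnap5a, besides Ttr, given above, and Mgat2 and Vcpkmt, described with Gm9887. None of these 8 passed. Casq2, a calcium-binding protein of intracellular stores, was at 1.25, 2.34, 2.60, 2.74, 1.64 and 1.41 CPM with the Fosb guide. The controls had 3.98, 3.60, 3.83, 4.80, 2.46, 3.69, 3.10 and 4.91 CPM. Control 17455 was the one that reached down among the libraries with the Fosb guide. The fold change was −0.93 ± 0.27 (SE, edgeR adjusted p of 0.987), −1.04 without 16583 and 17376 and −0.64 under the cortical marker covariate. Gpr101, an orphan G protein-coupled receptor, was at 7.99, 3.31, 10.3, 17.4, 7.15 and 3.76 CPM with the Fosb guide. The controls had 22.2, 52.5, 30.4, 13.3, 20.7, 44.4, 22.9 and 15.1 CPM. Only 17376 came above the lowest controls, 16597 and 19755. The fold change was −1.73 ± 0.54 (SE, edgeR adjusted p of 0.987), −2.14 without 16583 and 17376 and −0.81 under the cortical marker covariate.

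Plrg1, a subunit of the spliceosome, had a smaller difference at a higher level: 36.9 to 51.7 CPM with the Fosb guide, with 17376 highest, and 44.7 to 59.2 CPM with the control guide. It had a fold change of −0.28 ± 0.08 (SE, edgeR adjusted p of 0.975), and −0.32 without 16583 and 17376. Fibin was at −0.75 ± 0.22 and Cntnap5a, a neurexin-like adhesion protein, at −0.50 ± 0.15 (SE). The fit without 16583 and 17376 added Msantd1 at −0.66, Dusp26, a phosphatase of neural tissue, at −0.40, and Tcfl5 at −1.54, none of which passed. Htr4, a serotonin receptor of medium spiny neurons coupled to cAMP, was at 3.57 to 15.7 CPM with the Fosb guide and 12.8 to 32.7 CPM with the control guide. The difference was −0.95 ± 0.34 (SE, edgeR adjusted p of 1), while the 11 serotonin receptors had a median of −0.03, with 5 above 0. Htr7, coupled to cAMP as well, was at −0.57 ± 0.27. Crh, the corticotropin-releasing peptide, was at −1.91 ± 0.70 (SE), with 11.4 CPM in control 16585, and −1.23 without it. Trh was at −0.60 ± 0.28.

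**Figure D3:**
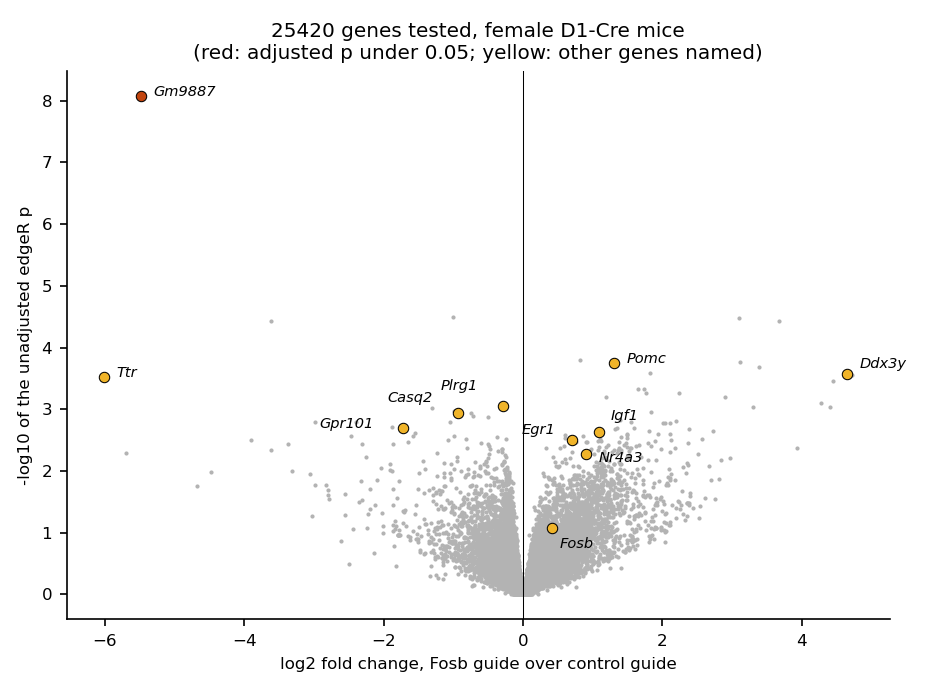
Log2 fold change of the Fosb guide over the control guide (x) against −log10 of the unadjusted edgeR p (y) for the 25420 genes tested; the red point passed after adjustment and yellow points are other genes named. Gm9887 at −5.48 stands alone at the top, and Fosb at 0.41 lies inside the cloud.

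Among housekeeping and glial groups no member passed, and several lists lay to one side of 0. None of 20 ribosomal protein genes lay above 0 (median −0.08), although 1 did with DESeq2 size factors and 9 under the cortical marker covariate. None of 20 nuclear genes of oxidative phosphorylation did either (median −0.10), with Sdhb, a succinate dehydrogenase subunit, at −0.16 ± 0.07 (SE). This second list moved further down under the cortical marker covariate, to a median of −0.21 with none above 0. Its unadjusted edgeR p was then below 0.05 for 11 genes, against 1 without the covariate. Leaving out control 16597 instead brought its median to −0.045, with 2 above 0. The 14 microglial genes (median 0.11) and the 11 proliferation genes (median 0.13) lay above 0 with all libraries, but this rested on single libraries. Without Fosb guide library 17436, 2 of 14 (median −0.056) and 5 of 11 (median −0.013) did. Without control 16597, 10 of 14 (median 0.026) and 6 of 11 did. P2ry12, a purine receptor of microglia, was at 0.21 ± 0.17 (SE), with 39.3 to 55.4 CPM with the Fosb guide and 26.9 to 59.2 CPM with the control guide. Without 16583 and 17376 the 4 medians were −0.05, −0.10, 0.08 and 0.19. Of 12 heat shock chaperones 3 lay above 0 (median −0.13), with Ahsa1, an activator of the HSP90 ATPase, at −0.24 ± 0.08 (SE, edgeR p = 0.00601 unadjusted and 1 adjusted). Ahsa1 was at 52.6 to 69.5 CPM with the Fosb guide and 60.4 to 84.9 CPM with the control guide. Hspa8, a constitutive chaperone, was at −0.16 ± 0.09. Of 13 glucocorticoid-responsive genes 12 lay above 0 (median 0.13).

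Interferon and antigen presentation genes, which respond to viral vectors, varied between libraries of both groups. The 23 type I interferon genes had a median of −0.18, with 2 above 0, and the 16 antigen presentation genes −0.03, with 7 above 0. With limma-voom, which weights libraries by quality, 9 of the 23 and 13 of the 16 lay above 0, and 20 and 16 did under the cortical marker covariate. Without control 16596, 7 of the 23 (median −0.036) and 15 of the 16 did. The mean log2 CPM of the interferon list ran from 4.96 in 16754 to 5.86 in 16565 among libraries with the Fosb guide and from 4.91 in 17719 to 6.58 in 16596 among controls, with 16583 at 6.37. Rsad2, an antiviral enzyme induced by interferon, was at 19.1 to 37.1 CPM with the Fosb guide and 16.5 to 81.5 CPM with the control guide, a fold change of −0.47 ± 0.61 (SE). Lymphocyte genes had a median of −0.06, which was 0.12 without control 17455, and were lowest in 16754 among libraries with the Fosb guide and in 16597 among controls.

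**Figure D4:**
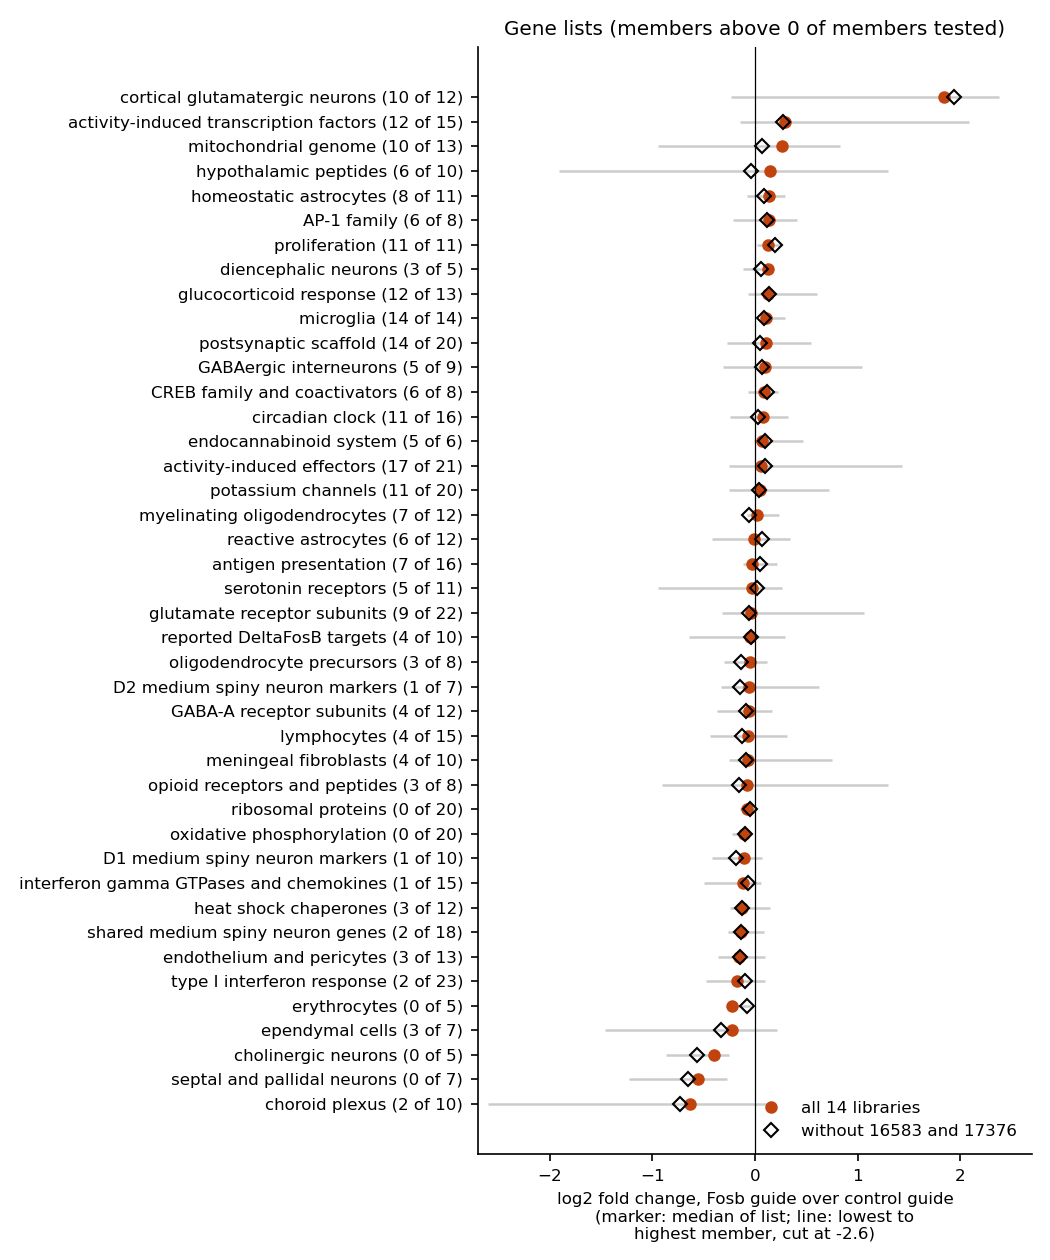
Median log2 fold change of 42 gene lists, without the Y-linked genes and Xist, with all 14 libraries (red points) and without 16583 and 17376 (open diamonds); grey lines run from the lowest to the highest member, cut at the left edge for the choroid plexus list. Of the lists drawn, the cortical one at 1.84 lies far right, followed by the activity-induced factors at 0.29.

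Gm9887, the gene that passed, was high in 1 control library. It was at 890 CPM in control 16583, from 26426 reads, at 1.98 to 4.18 CPM in the other 7 controls and at 1.81 to 3.05 CPM with the Fosb guide. The fold change was −5.48 ± 0.85 (SE, edgeR adjusted p of 0.000214), and −0.12 without 16583 and 17376, when no gene passed and 1210 had an unadjusted edgeR p under 0.05. Gm9887 lies on chromosome 12, 69371835 to 69372458, minus strand of mm10, and overlaps the start of Arf6, which runs from 69372150 to 69373783 on the plus strand. No source used here gives the strand setting of the count, so reads of the overlap cannot be told apart. Arf6, a small GTPase of membrane traffic, was at 959 CPM in 16583, at 36.0 to 79.5 CPM in the other controls and at 41.5 to 65.8 CPM with the Fosb guide.

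Other genes of the same stretch stood out in single control libraries too. Mgat2, a Golgi glycosyltransferase 188 kb before Gm9887, was at 521 CPM in 16583 and 111 CPM in 16585, and at 39.7 to 73.7 CPM in the other 6 controls. It was at 41.8 to 54.2 CPM with the Fosb guide. Pole2, a DNA polymerase subunit, was at 62.6 CPM in 17455 and at most 4.18 CPM in the other controls, against 0.781 to 2.71 CPM with the Fosb guide. Vcpkmt, a lysine methyltransferase, was at 61.7 CPM in 16597 and 5.69 to 7.61 CPM in the other controls, against 5.27 to 7.94 CPM with the Fosb guide. The Fosb guide over the control guide gave −0.99 ± 0.29 (SE), and 0.03 without 16597. Mgat2 was at −1.31 ± 0.38 and −0.34 without 16583 and 17376, and Arf6 at −1.55 ± 0.49 and 0.08. A library with the Fosb guide stood out as well. Gm49383 was highest in 16565, at 76.4 CPM from 2932 reads, against a median of 31.4 CPM over the libraries other than 16583. Of the 35 genes tested within 500 kb of Gm9887, 5 were highest in 16583 and the median fold change was −0.13. The same window holds Rn7s1 and Rn7s2, copies of the signal recognition particle RNA, a short RNA of very high abundance. Rn7s1 had 483 to 2741 CPM with the Fosb guide and 419 to 5976 CPM with the control guide.

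**Figure D5:**
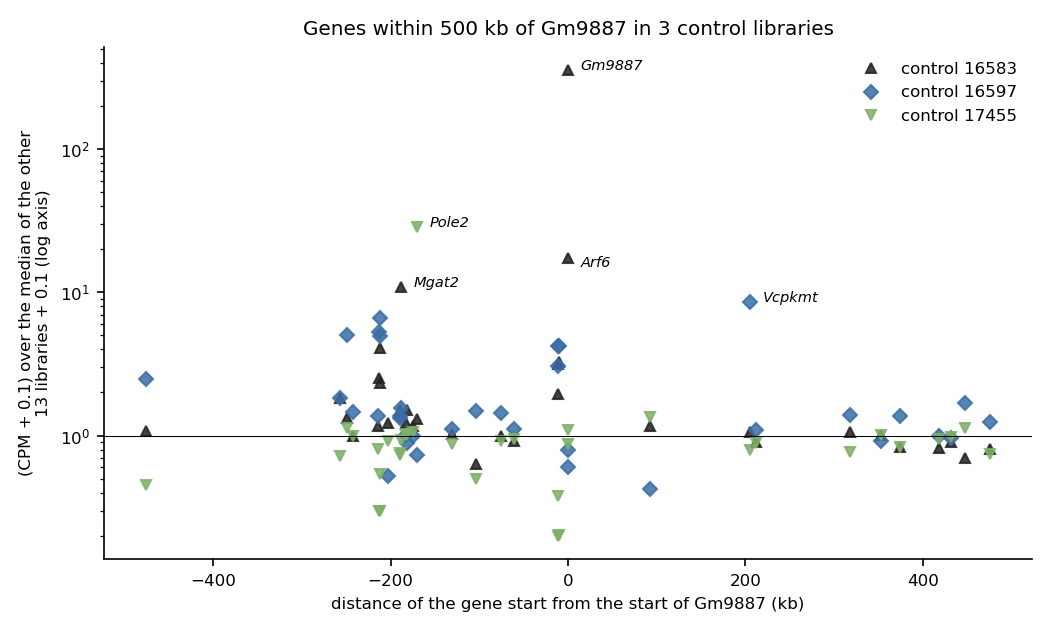
Level in 3 control libraries over the median of the other 13 libraries, on a log axis, for genes tested within 500 kb of Gm9887, by distance of their starts in kb. Gm9887, Arf6 and Mgat2 are high in 16583, Pole2 in 17455 and Vcpkmt in 16597, while most genes between them lie near 1.

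The effect of the Fosb guide was also compared with that in other arms of the series, each with its own controls. In the female D1-D2 arm delivery did not depend on Cre. For Fosb the log2 fold change of female D1 mice minus that of male D1 mice was −0.07 ± 0.36 (SE). Minus that of female D2 mice it was 0.78 ± 0.33, and minus that of female D1-D2 mice 0.33 ± 0.31. The unadjusted edgeR p were 0.841, 0.0198 and 0.288, and each was 1 after adjustment. The male D1 arm holds 11 libraries, the female D2 arm 16 and the female D1-D2 arm 20. In Fosb guide libraries 17907 and 18432 of the female D2 arm 10 genes took 95.5% and 94.0% of counts. In Fosb guide library 19610 of the female D1-D2 arm they took 96.8%. Female D1 libraries enter each of the 3 differences, which are therefore not independent. Each difference also holds the change in the other arm, which is not reported here, so it need not come from female D1 mice alone. Egr1 differed by 0.16 ± 0.36, 0.69 ± 0.32 and 0.74 ± 0.30, and Nr4a3 by 0.83 ± 0.48, 1.06 ± 0.44 and 1.04 ± 0.41 (SE), in the same order. Igf1 differed by 1.46 ± 0.53, 1.33 ± 0.49 and 1.22 ± 0.45 (SE), and Gpr101 by −1.51 ± 0.80, −1.97 ± 0.71 and −2.18 ± 0.69. The lowest adjusted edgeR p among these 4 genes was 0.987. They were named for a small p in the female D1 comparison, which is part of each difference. That choice favours large differences in the same direction. A single gene passed in each difference (0.00393% of those tested), and 3.73%, 3.58% and 3.37% had an unadjusted edgeR p under 0.05. Gm9887 passed against female D2 and female D1-D2 mice, at −5.49 ± 1.03 and −5.89 ± 1.00 (SE, edgeR adjusted p of 0.0224 and 0.00263). Against male D1 mice it was 1700057H15Rik, at 7.50 ± 1.3 (SE, edgeR adjusted p of 0.0021). That gene was at 3.96 CPM in Fosb guide library 17376, from 261 reads, and at most 0.153 CPM in the other 5, against 0.0337 to 0.217 CPM with the control guide. The difference also holds the change of 1700057H15Rik in the male D1 arm, whose levels are not reported here. Leaving out 16583 and 17376, no gene passed in any of the 3 differences.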

How the data were processed

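The authors deposited a table of read counts per gene, whole numbers without normalization, for 55487 genes. Per the submitters' processing notes the tools were HISAT2, Trim Galore, featureCounts (Subread), SAMtools and DESeq2, and the build mm10. Neither the annotation nor the strand setting of the count is given in the sources used here. Of 88 labelled libraries 87 had a column, assigned by the number in its title, and 1 column that matched no label was left out. Genes were named and placed with GENCODE M21.

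Counts were fitted with edgeR 4.0.16 in R 4.3.3 (robust quasi-likelihood, TMM, filterByExpr by group), with 12 groups and sequencing batch as terms, and p-values were adjusted over all genes at 0.05. Alternatives tried were the size factors of DESeq2, keeping genes of low counts, DESeq2 1.42.0, limma-voom (limma 3.58.1) with quality weights, the arm fitted alone, dropping the 4 libraries of other groups with over 90% of counts in 10 genes, marker covariates (mean log2 CPM, prior count 2), and leaving out libraries. Steps were tested on simulated data with 200 changed genes.

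The 44 gene lists, the comparisons and the genes looked at were chosen with earlier results of these data known. Lists are described by counts and medians, without a test. Genes named are Fosb, those that passed, the 8 of smallest p per direction among established symbols averaging 1 CPM or more (with all libraries and without 16583 and 17376), up to 4 of smallest p per list, and neighbours of Gm9887 and Fosb. Some genes that the rule names are not reported here. Other genes given with a value were chosen after their values were seen. CPM have no length scaling, so levels are compared within a gene. Counting error is largest in 17457, with 34 reads of Fosb, against 135 to 415 in the other controls.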

Additional observations from a re-analysis of the deposited data

Results flagged for a closer look

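Values here stood apart from the rest of their own group of 6 or 8 libraries by Dixon's test on log2 CPM, which chance alone meets in about 1 in 20 groups. Part of the genes were named for a small p or as neighbours of Gm9887, so the number flagged cannot be set against that rate. In libraries with the Fosb guide, Y-linked genes were highest in 17376, at 37.0 CPM for Ddx3y, 13.9 for Kdm5d and 9.04 for Eif2s3y, with a mean log2 CPM of 4.13 over the 4 Y-linked genes. In the controls they were highest in 17457, at 4.77 CPM for Ddx3y, 3.90 for Uty, 1.52 for Kdm5d and 1.52 for Eif2s3y, with a mean log2 CPM of 1.39. The noncoding gene 1700057H15Rik was highest in the same libraries, at 3.96 CPM in 17376 and 0.217 CPM in 17457, where it had 1 read.

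On chromosome 12 the high values flagged by this test were in controls. They were Gm9887 at 890 CPM, Arf6 at 959 CPM and Mgat2 at 521 CPM in 16583, Vcpkmt at 61.7 CPM in 16597 and Pole2 at 62.6 CPM in 17455. Pole2 was also lowest in Fosb guide library 16754, at 0.781 CPM.

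Other single libraries with the Fosb guide were 16564 for Pomc, at 11.6 CPM, and 16565 for Myl4, at 6.51 CPM, and for the low level of Pdyn, at 83.5 CPM. In 16754 the serotonin receptor list was highest, at a mean log2 CPM of 3.53, and the lymphocyte list lowest, at 2.43. Among controls, 16585 was highest for Crh, at 11.4 CPM, and for the choroid plexus list, at a mean log2 CPM of 1.71. Control 19755 was lowest for Calb1, at 101 CPM, 17719 highest for Dpy19l3, at 75.5 CPM, and 17457 lowest for Tcfl5, at 0.217 CPM, the level of 1 read in that library.

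The effect of the guide differed between arms by an edgeR interaction test in 3 cases. For 1700057H15Rik it was 7.50 higher on the log2 scale in female D1 than in male D1 mice, and for Gm9887 the difference was −5.49 against female D2 and −5.89 against female D1-D2 mice. None of the 3 passed without 16583 and 17376.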

How the results depend on the processing

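The log2 fold change of Fosb kept its direction and missed the threshold in each of 24 other settings. The count of genes that passed with the Fosb guide was 0 with DESeq2 (1194 at an unadjusted p under 0.05), limma-voom (1071), the arm fitted alone (883) and without 16583 and 17376 (1210), and 0 to 1 with each library left out in turn (871 without 16583). For the difference from male D1 mice it was 0 with limma-voom (2537) and without both libraries (1176), and 0 to 1 with single libraries left out. For that from female D2 mice it was 0 with no low-count filter (2285), limma-voom (888), the cortical covariate (926) and without both libraries (993). It was also 0 without control 16583 and without any single library with the Fosb guide, and 1 without each of the other controls. For that from female D1-D2 mice it was 0 with DESeq2 (931), limma-voom (1798) and without both libraries (890), and 0 to 1 with single libraries left out. Without 16583 and 17376 the log2 fold change turned to −0.14 for Ddx3y, −0.041 for Kdm5d, −0.27 for Uty, −0.49 for Eif2s3y, 0.077 for Arf6 and −0.084 for 1700057H15Rik. Under the cortical covariate it turned to −0.078 for Nr4a2, −0.10 for Bdnf, 0.075 for Pdyn and −0.22 for Grm2, and the cause was not tested. With single libraries left out it ran from −0.24 to 0.021 for Pdyn, −0.13 to 1.51 for Pomc, −0.25 to 5.60 for Ddx3y, −0.13 to 5.30 for Kdm5d, −0.34 to 5.29 for Uty, −0.55 to 5.15 for Eif2s3y, −1.11 to 0.027 for Vcpkmt and −1.70 to 0.10 for Arf6. Leaving out 16754 and 17457 together, chosen after seeing the data, gave 1 gene that passed, and Fosb an exact permutation p of 0.139 (two-sided). Depth limits 17457 most. No paired analysis was possible because each library has its own number, shared with no other group.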
